A study of Mus musculus with 2 samples.

Results

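The Hox genes described here are the 39 mouse genes whose symbols consist of Hox, a cluster letter from a to d and a paralog number. They were selected by symbol from 43346 annotated genes, and all 39 were present in the tables of both libraries. The study sequenced polyA RNA longer than 200 nt from mouse subcutaneous fat pad as stranded paired reads of 76 nt. Its only group holds 2 libraries, replicates 1 and 2, which the labels give as 2 tissue samples with the same donor entry. Both came from adult C57BL/6J animals of 8 weeks, littermates of both sexes that were pooled, and no genotype or treatment is named. No condition can therefore be compared, and the questions that the data can address are which Hox genes the tissue expressed and how far the replicates differed in them.

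Hox genes encode homeodomain transcription factors that give cells along the body axis, the limbs and the urogenital tract their positional identity. They lie in clusters, and genes at the low-numbered end of a cluster are used towards the head while high-numbered genes are used towards the tail and in the distal limb. Genes with the same number in different clusters are paralogs that derive from a common ancestor. Adult mesenchymal cells, those of fat depots included, keep a Hox pattern that differs with the place in the body they come from.

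The libraries held 53601218 and 57500971 estimated counts on annotated genes, and those of the Hox genes made up 0.0829% in replicate 1 (exact Clopper-Pearson 95% interval 0.0821 to 0.0837) and 0.0298% in replicate 2 (0.0294 to 0.0303). These intervals, like all those given for ratios, cover counting error only. All 12 white adipocyte markers were at a TPM of at least 1 in both libraries, with a summed TPM of 20987 and 45256, so fat was present in each. Markers listed for some other tissues were higher in replicate 1. These lists were chosen with earlier results of these data known. The 18 listed markers of uterus and oviduct summed to 1479 TPM in replicate 1 and 25.2 in replicate 2. Of the 16 that could be compared, 15 were over 2-fold higher in replicate 1, beside 14.3% of all genes compared. Lhx1 and Prss28 were at 0 in both. All 7 smooth muscle markers (6031 and 679 TPM) and all 10 glandular epithelium markers (770 and 15.4 TPM) were also higher in replicate 1, beside the same 14.3%. Against the label of pooled sexes, the sum of counts over Y-linked Uty, Ddx3y, Eif2s3y and Kdm5d was only 6 and 4, beside 45378 and 25266 for Xist, the RNA of the inactive X chromosome. In bulk tissue, fewer cells of a type and less RNA per cell cannot be told apart.

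Of the 39 Hox genes, 26 were detected in both libraries, that is, at a TPM (relative transcript abundance, corrected for transcript length) of at least 1. The background was 29.4% of all annotated genes and 55.5% of protein-coding genes. A further 5 were detected in replicate 1 only, namely Hoxa13, Hoxc11, Hoxd3, Hoxd10 and Hoxd11. The 7 genes Hoxb1, Hoxb13, Hoxc12, Hoxc13, Hoxd1, Hoxd12 and Hoxd13 had at most 1 count in replicate 1 and 0 in replicate 2. The highest upper bound that the authors' program gave for any of these 7 was that of Hoxb1, 0.156 TPM in replicate 1 and 0.136 in replicate 2. The bounds thus leave room for a level up to that in Hoxb1, and for lower levels in the others. They include every Hox gene of paralog groups 12 and 13 other than Hoxa13.

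Summed over all 39 genes, Hox TPM was 730 in replicate 1 and 242 in replicate 2 (486 ± 345, SD, n = 2). The order of the genes differed between the libraries. Hoxa10 led replicate 1, followed by Hoxa11, Hoxa9, Hoxd4 and Hoxd9, whereas Hoxc6 led replicate 2, followed by Hoxd4, Hoxc8, Hoxa7 and Hoxc10. In replicate 1 the authors' bounds of Hoxd9 and Hoxd11 overlapped, as did those of Hoxb8 and Hoxd10, and in replicate 2 those of Hoxd4 and Hoxc8 and those of Hoxa10 and Hoxa9 did, so these neighbours in the order do not differ beyond their bounds. Only Hoxa10, Hoxa9, Hoxb6, Hoxd4 and Hoxd8 were among the first 10 in both libraries. The rank correlation of TPM between the libraries was 0.64 over the 39 Hox genes, beside 0.88 over the 15079 genes at a TPM of at least 1 in either library. The sets are unlike, since the 39 include 7 genes below 1 TPM in both libraries, which the other set leaves out. Genes of a cluster also share neighbours and, in places, exons. For 26 of the 39 genes the authors' TPM bounds in the libraries did not overlap. The share over all genes is not given here, so this count does not set Hox genes apart.

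**Figure D1:**
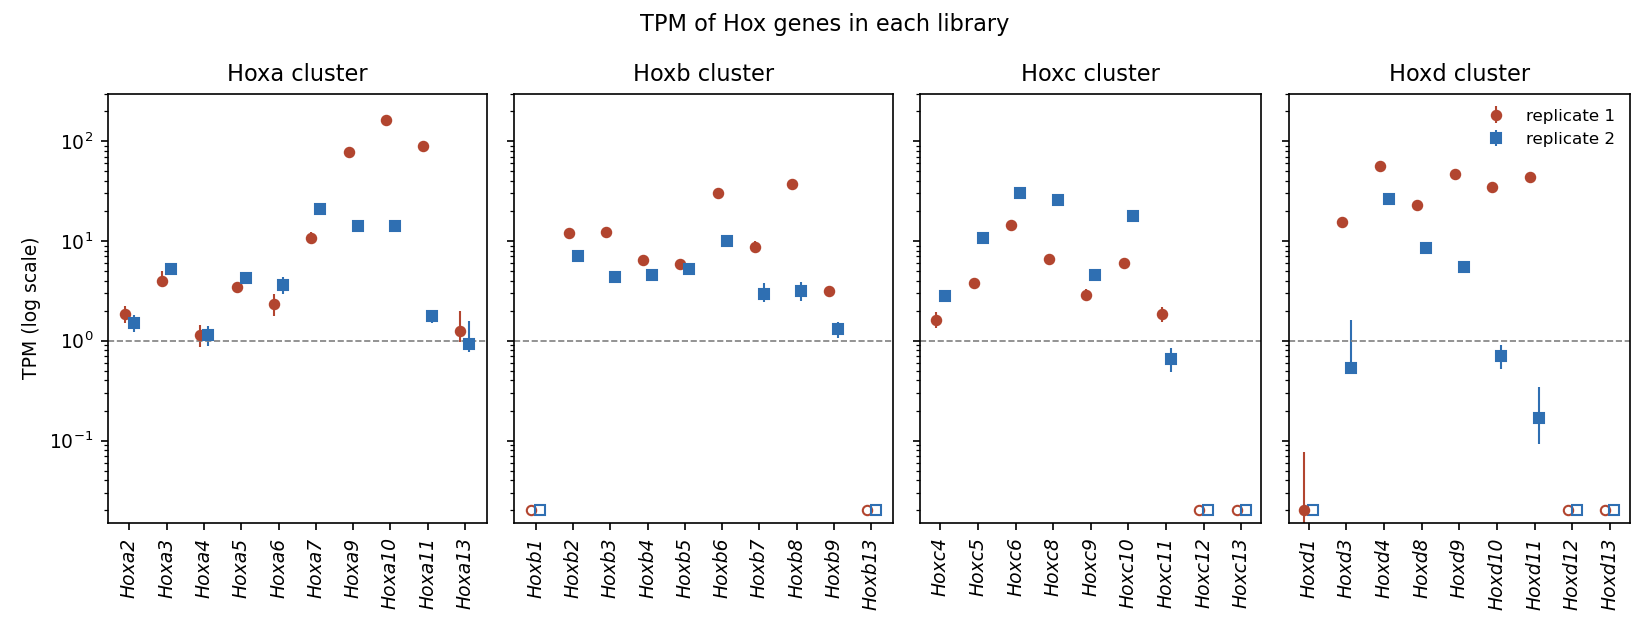
TPM (log scale) of Hox genes in replicate 1 (red circles) and replicate 2 (blue squares), by cluster and paralog number, with the authors' TPM bounds as vertical lines. Open symbols at the foot mark genes listed at 0 or 0.01 TPM, and the dashed line marks a TPM of 1. For Hoxa9 to Hoxa11 and Hoxd9 to Hoxd11 the red circles lie far above the blue squares, and for Hoxc4 to Hoxc10 the squares lie above the circles.

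The Hoxa cluster (chr6:52162417-52260880 from Hoxa2 to Hoxa13, minus strand, GRCm38, the build also called mm10) held the most Hox RNA in replicate 1, 357 of 730 TPM, against 68.8 of 242 in replicate 2. Its genes Hoxa9, Hoxa10 and Hoxa11 were higher in replicate 1 and Hoxa7 was higher in replicate 2. Hoxa10, a gene best known for patterning the uterus and the lumbar region, had 164 TPM (9579 counts) in replicate 1 and 14.2 TPM (903 counts) in replicate 2. On counts scaled with TMM factors, which set the typical gene equal in both libraries, it was 7.97-fold higher in replicate 1 (95% interval 7.44 to 8.54). Its mean level was 89.3 ± 106 TPM (SD, n = 2), so the spread exceeded the mean.

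Hoxa11, which acts in the uterus, kidney and forearm, differed more. It had 88.8 TPM (6916 counts) in replicate 1 and 1.76 TPM (160 counts) in replicate 2, which is 32.5-fold higher in replicate 1 (27.7 to 38.2). Hoxa9, a factor of the oviduct and of blood progenitors, had 78.6 TPM (4664 counts) and 14.1 TPM (774 counts), 4.53-fold higher in replicate 1 (4.19 to 4.89). These 3 adjacent genes together made up 45.4% of Hox TPM in replicate 1 and 12.4% in replicate 2. Hoxa13, the last gene of the cluster and a factor of hand, foot and hindgut, stayed near the limit of detection, with 1.24 and 0.92 TPM from 42 and 48 counts. Its ratio of replicate 2 to replicate 1, 1.52 (0.98 to 2.36), lay on the other side of 1 from those 3 genes, with an interval that spans 1.

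The promoter windows of Hoxa10 and Hoxa11, the 2 Hox genes with the highest TPM in replicate 1, are shown because their start sites lie in the stretch that was higher there. Hoxa10 has separate start sites for its short and long transcripts. The windows are the 250 bases upstream of each start, from RefSeq sequence of GRCm38.p6, 5′ to 3′ on the minus strand, at chr6:52234940-52235189, chr6:52240855-52241104 and chr6:52245811-52246060. Capitals mark a TATA box (TATAAA) or a CCAAT box (CCAAT), read on either strand; Hoxa11 was chosen for printing after its values were seen.
Hoxa10, start of Hoxa10-202: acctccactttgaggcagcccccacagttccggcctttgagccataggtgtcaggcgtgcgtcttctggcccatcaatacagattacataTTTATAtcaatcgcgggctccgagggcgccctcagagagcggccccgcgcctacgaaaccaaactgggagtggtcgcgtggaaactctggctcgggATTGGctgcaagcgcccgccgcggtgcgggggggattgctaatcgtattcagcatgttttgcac
Hoxa10, start of Hoxa10-201: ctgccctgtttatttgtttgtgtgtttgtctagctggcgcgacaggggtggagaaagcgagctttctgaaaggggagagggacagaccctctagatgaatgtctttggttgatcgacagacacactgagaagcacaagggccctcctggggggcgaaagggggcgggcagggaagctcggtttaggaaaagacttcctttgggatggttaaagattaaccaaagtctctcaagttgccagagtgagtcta
Hoxa11: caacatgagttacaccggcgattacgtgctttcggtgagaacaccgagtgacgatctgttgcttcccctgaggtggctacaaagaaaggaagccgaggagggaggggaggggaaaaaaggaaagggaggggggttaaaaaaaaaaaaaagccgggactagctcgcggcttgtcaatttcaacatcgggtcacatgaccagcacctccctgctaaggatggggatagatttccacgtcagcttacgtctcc
Upstream of Hoxa10-202 the TATA box match lay 160 to 155 bases and the CCAAT match 64 to 60 bases before the start. Neither of the other 2 windows held a match to any of the motifs searched. The Hoxa11 window overlaps exons of Hoxa11os, a noncoding RNA on the opposite strand, and held 13 CpG sites, against 20 upstream of Hoxa10-202 and 7 upstream of Hoxa10-201.

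The genes from Hoxa2 to Hoxa7 had low to moderate levels, between 1.14 and 10.8 TPM in replicate 1 and between 1.14 and 20.7 TPM in replicate 2. Hoxa7, a gene of the thoracic region, was the highest of them, with 10.8 TPM (542 counts) and 20.7 TPM (1332 counts), and was 3.27-fold higher in replicate 2 (2.96 to 3.62). On TPM with pseudocounts of 0.1 and 1 its ratio was 1.91 and 1.84, inside the 2-fold bound. The other 5, Hoxa2 to Hoxa6, had ratios of replicate 2 to replicate 1 that were not wholly beyond 2-fold.

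Among these 5, Hoxa5, which acts in lung and in the mammary gland, had 3.47 and 4.21 TPM. Hoxa3, a factor of the thymus and parathyroid, had 3.96 and 5.22 TPM and a ratio of 2.18 (1.90 to 2.51). Hoxa6 had 2.34 and 3.66 TPM with a ratio of 2.43 (1.75 to 3.41). The lowest were Hoxa2, a gene of the hindbrain and outer ear, at 1.84 and 1.5 TPM, and Hoxa4 at 1.14 in each library. All 6 ratios from Hoxa2 to Hoxa7 were above 1, from 1.27 to 3.27, although the interval of Hoxa2 (0.95 to 1.69) spans 1, while all 3 from Hoxa9 to Hoxa11 were below 1; scaled by total or spike-in counts, Hoxa2 fell on the other side of 1, with ratios of 0.89 and 0.92. The gene bodies of Hoxa7 and Hoxa9, between which the direction changed, are 1245 bases apart. The runs of neighbouring genes named here and below were chosen after their values were seen.

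The Hoxd cluster (chr2:74668310-74765142, plus strand) was the next most abundant in replicate 1, with 221 TPM against 41.9 in replicate 2, and no compared gene of it was higher in replicate 2. Hoxd4, a factor of the cervical spine and hindbrain, was its highest gene, with 56.9 TPM (2739 counts) in replicate 1 and 26.6 TPM (1534 counts) in replicate 2. Its scaled counts were 1.34-fold higher in replicate 1 (1.26 to 1.43), inside the 2-fold bound. Hoxd8 likewise had 22.9 and 8.44 TPM, a 1.68-fold difference (1.55 to 1.83). The ratio of Hoxd4 depends on how the authors' model divided reads in exons shared with Hoxd3 and Gm28230, as set out below.

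The genes from Hoxd9 to Hoxd11 had larger differences than these 2. Hoxd9, a gene of the lumbar region and hindlimb, had 47.0 TPM (3393 counts) and 5.50 TPM (466 counts) and was 5.47-fold higher in replicate 1 (4.96 to 6.04). Hoxd10, which acts in the hindlimb and lower spinal cord, had 35.1 TPM (2111 counts) and 0.71 TPM (50 counts) and was 31.7-fold higher (24.0 to 42.9). Hoxd11, a partner of Hoxa11 in kidney and forearm, had 43.5 TPM (2059 counts) and 0.17 TPM (12.7 counts), 119-fold higher in replicate 1 (69.4 to 224), which was the most extreme ratio of any Hox gene. In replicate 2 only 2.64% of Hox TPM came from these 3 genes, against 17.2% in replicate 1.

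The windows upstream of Hoxd10, Hoxd11 and Hoxd4 are shown to set the pair that differed most in this cluster beside Hoxd4. Hoxd4 differed least by its own counts, which depend on the division of shared reads. They lie on the plus strand of GRCm38.p6 at chr2:74691641-74691890, chr2:74682073-74682322 and chr2:74721728-74721977. Capitals mark matches on either strand to a TATA box, a CCAAT box, a homeodomain core (TAATTA) or a composite Hox-Pbx site (TGATNNAT); Hoxd10 was chosen for printing after its values were seen.
Hoxd10: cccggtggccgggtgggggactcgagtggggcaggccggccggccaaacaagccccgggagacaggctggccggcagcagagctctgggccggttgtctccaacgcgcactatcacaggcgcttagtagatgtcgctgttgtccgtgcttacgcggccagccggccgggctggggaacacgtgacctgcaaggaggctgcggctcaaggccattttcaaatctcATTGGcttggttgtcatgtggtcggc
Hoxd11, start of Hoxd11-202: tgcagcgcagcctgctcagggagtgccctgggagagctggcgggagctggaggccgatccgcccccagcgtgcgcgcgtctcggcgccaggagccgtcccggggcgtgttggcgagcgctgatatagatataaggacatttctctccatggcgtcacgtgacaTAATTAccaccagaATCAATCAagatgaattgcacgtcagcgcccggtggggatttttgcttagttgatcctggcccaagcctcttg
Hoxd4, start of Hoxd4-201: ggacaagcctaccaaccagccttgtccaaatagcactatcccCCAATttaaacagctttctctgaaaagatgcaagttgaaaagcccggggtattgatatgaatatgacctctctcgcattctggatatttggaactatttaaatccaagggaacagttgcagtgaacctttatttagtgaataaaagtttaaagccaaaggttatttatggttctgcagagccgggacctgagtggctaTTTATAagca
The Hoxd11 window held a Hox-Pbx match 73 to 66 bases and a homeodomain core 87 to 82 bases before the start. The Hoxd10 window held a CCAAT match 26 to 22 bases before its RefSeq start, which lies 33 bases upstream of the start of Hoxd10-201. The Hoxd4 window belongs to Hoxd4-201, a minor transcript with 4.44% and 7.96% of the gene's TPM, and held a CCAAT match 208 to 204 bases and a TATA match 10 to 5 bases before the start. No match overlapped another in the windows printed.

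Hoxd3 had 15.3 TPM (1524 counts) in replicate 1 and 0.53 TPM (64.6 counts) in replicate 2, 17.6-fold higher in replicate 1 (13.7 to 22.9). However, neither Hoxd3 nor Hoxd4 can be counted apart from its neighbours. Hoxd3 and Hoxd4 share exon bases on the same strand with each other and with Gm28230, a predicted gene with 1555 and 665 counts that shares 2225 exon bases with Hoxd3 and 1154 with Hoxd4. Summed, the 3 genes had 5819 and 2263 counts and were 1.93-fold higher in replicate 1 (1.84 to 2.03), which is no longer wholly beyond 2-fold. Hoxd10 and Hoxd11 share exons with Gm28309 in the same way, and there the sum of 4458 and 72 counts kept a large difference, 46.5-fold (36.8 to 59.5).

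The Hoxc cluster (chr15:102921103-103036852, plus strand) was the only one with more TPM in replicate 2, 92.8 against 37.1 in replicate 1, and its share of Hox TPM was 38.3% and 5.07%. Hoxc6, a gene of the thoracic region, had 14.4 TPM (700 counts) in replicate 1 and 30.5 TPM (1777 counts) in replicate 2. It was 3.38-fold higher in replicate 2 (3.10 to 3.69), with a mean of 22.4 ± 11.4 TPM (SD, n = 2). Hoxc8, a brachial and thoracic gene whose promoter is not printed, had 6.55 TPM (409 counts) and 25.7 TPM (1882 counts). It was 6.13-fold higher in replicate 2 (5.50 to 6.84), the most extreme Hox ratio in that direction.

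Hoxc10, a hindlimb and lumbar gene, had 5.95 TPM (379 counts) and 18.0 TPM (1340 counts), 4.71-fold higher in replicate 2 (4.2 to 5.29). Hoxc5 had 3.83 and 10.6 TPM, 4.32-fold higher (3.85 to 4.85); it shares 166 exon bases on the same strand with Hoxc10. Hoxc9, a gene of the thoracic motor column, had 2.87 and 4.55 TPM and was 2.47-fold higher (2.11 to 2.91). The genes higher in replicate 2 here thus ran from Hoxc4 to Hoxc10.

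Hoxc4 had 1.62 and 2.83 TPM and was 2.72-fold higher in replicate 2 (2.17 to 3.44). Scaled by total or spike-in counts, the ratios of Hoxc4 (1.91 and 1.98) and Hoxc9 (1.73 and 1.80) no longer passed the 2-fold bound, while all 6 genes from Hoxc4 to Hoxc10 remained higher in replicate 2. Hoxc11, next in the cluster, went the other way, with 1.85 TPM (126 counts) and 0.65 TPM (52 counts), a 1.82-fold difference (1.31 to 2.56) that is not wholly beyond the bound.

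The Hoxb cluster (chr11:96194316-96368256, plus strand) took nearly the same share of Hox TPM in both libraries, 15.8% and 15.9%, from sums of 116 and 38.6 TPM. Hoxb6, a gene of trunk mesoderm, had 30.3 TPM (1614 counts) in replicate 1 and 10.03 TPM (549 counts) in replicate 2 and was 2.21-fold higher in replicate 1 (2.00 to 2.44), just beyond the bound. Hoxb8, known for its roles in the spinal cord and in myeloid cells, had 36.8 TPM (1011 counts) and 3.12 TPM (196 counts), 3.87-fold higher in replicate 1 (3.32 to 4.54). These were the only genes of the cluster beyond the bound.

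Of the others, Hoxb7 had 8.76 and 2.92 TPM with a difference of 2.01-fold (1.63 to 2.48), and Hoxb9, a thoracic gene, had 3.17 and 1.30 TPM. Hoxb3, with 12.2 and 4.31 TPM, was 1.74-fold higher in replicate 1 (1.55 to 1.96). Hoxb2, a hindbrain gene, had 12.01 and 7.09 TPM, yet its scaled counts differed by a ratio of 0.92 (0.81 to 1.04), since TPM does not share the TMM scaling. Hoxb4, a factor of blood stem cells, and Hoxb5 were among the steadiest, with 6.42 and 4.6 TPM and with 5.81 and 5.24 TPM. Their ratios were 1.12 (0.99 to 1.27) and 1.38 (1.19 to 1.58).

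By paralog group, Hox RNA in replicate 1 was weighted to the high numbers. Groups 9 to 13 held 64.7% of Hox TPM in replicate 1 and 25.5% in replicate 2, groups 4 to 8 held 29.0% and 66.2%, and groups 1 to 3 held 6.28% and 8.28%. Group 10 was the largest in replicate 1, with 205 TPM, and group 6 in replicate 2, with 44.2 TPM. Group 11 had 134 TPM in replicate 1 and 2.58 TPM in replicate 2. The leading gene was the same in both libraries in groups 2, 4, 7, 9, 11 and 13; group 12 had no reads. In group 3 it was Hoxd3 in replicate 1 and Hoxa3 in replicate 2. Reads of Hoxd3 were divided by a model with those of Hoxd4 and Gm28230, which had 4.55 TPM in replicate 2. Whether the change of leader depends on that division was not tested. In groups 5, 6, 8 and 10 it was Hoxb5, Hoxb6, Hoxb8 and Hoxa10 in replicate 1, and the Hoxc paralog in replicate 2.

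**Figure D2:**
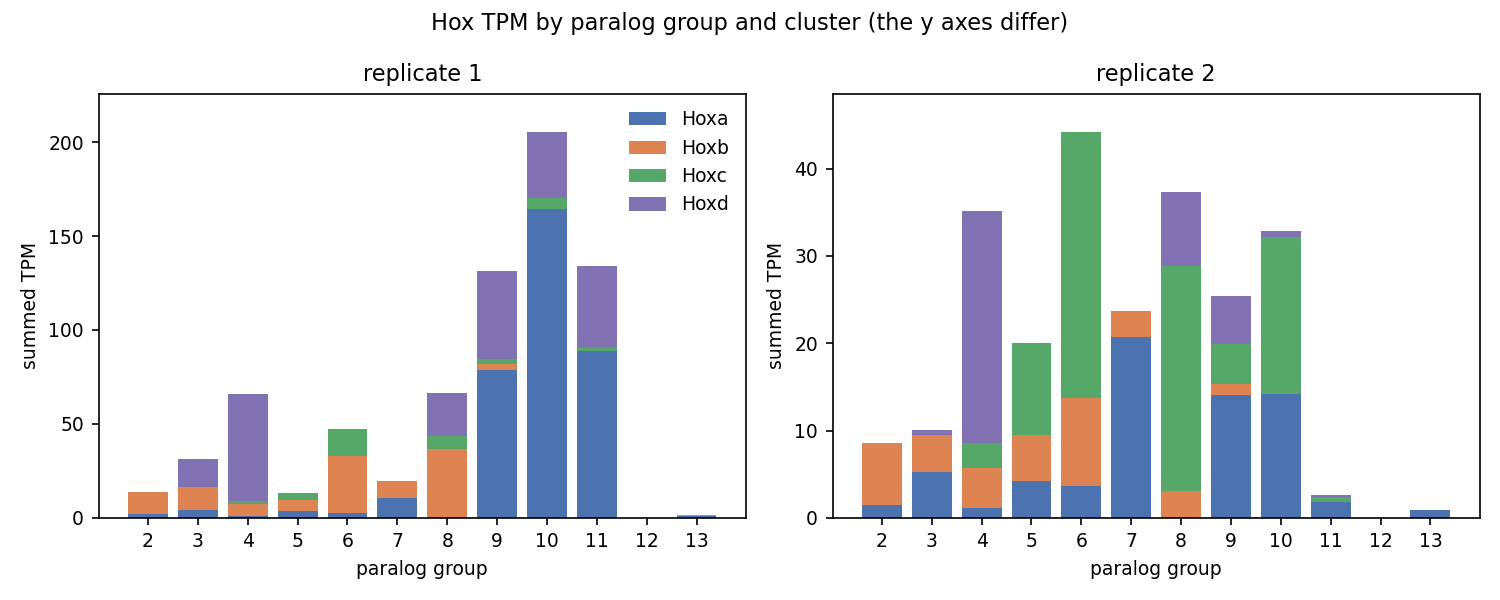
Summed TPM of the Hox genes in paralog groups 2 to 13, stacked by cluster, in replicate 1 (left) and replicate 2 (right); the y axes differ. Group 10 reaches 205 TPM in replicate 1, mostly Hoxa10, and group 6 reaches 44.2 TPM in replicate 2, mostly Hoxc6.

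Of the 39 Hox genes, 32 averaged at least 10 scaled counts, the minimum for comparing the libraries. A gene is called here over 2-fold higher in a library where the whole 95% interval of its ratio lies beyond 2-fold. By this rule 9 Hox genes were higher in replicate 1, beside 14.3% of the 17167 genes compared (14.8% of coding genes), and 8 were higher in replicate 2, beside 9.96% (9.79%). The 17 called genes are 53.1% of the Hox genes compared, beside 24.3% of all genes and 24.6% of protein-coding genes. The other 15 were not wholly beyond the bound. With 1 library on each side there is no p-value, and the difference has no replicate check.

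The calls were divided by cluster. Replicate 1 was higher for Hoxa9, Hoxa10, Hoxa11, Hoxb6, Hoxb8, Hoxd3, Hoxd9, Hoxd10 and Hoxd11, and the genes higher in replicate 2 included Hoxa7 and the 6 genes from Hoxc4 to Hoxc10. The median log2 ratio of replicate 2 to replicate 1 was 0.64 over the 11 compared Hoxa genes, -0.74 over 8 Hoxb genes, 1.76 over 7 Hoxc genes and -3.29 over 6 Hoxd genes. Over all 32 it was 0.02, beside 0.01 over all genes compared, with 16 ratios above 1 and 16 below. Rank correlations of the ratio with paralog number, among genes that are neighbours of each other, were -0.57 (11 Hoxa genes), -0.48 (8 Hoxb), -0.21 (7 Hoxc) and -0.66 (6 Hoxd). Scaled by total or spike-in counts, log2 ratios are shifted by -0.51 or -0.46 throughout, which leaves 13 or 14 Hox ratios above 1. Of the 17 calls, 15 were the same under all 4 scalings tried, and the split became 12 and 6 under these 2. The shares of all genes called under total or spike-in scaling are not given here.

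**Figure D3:**
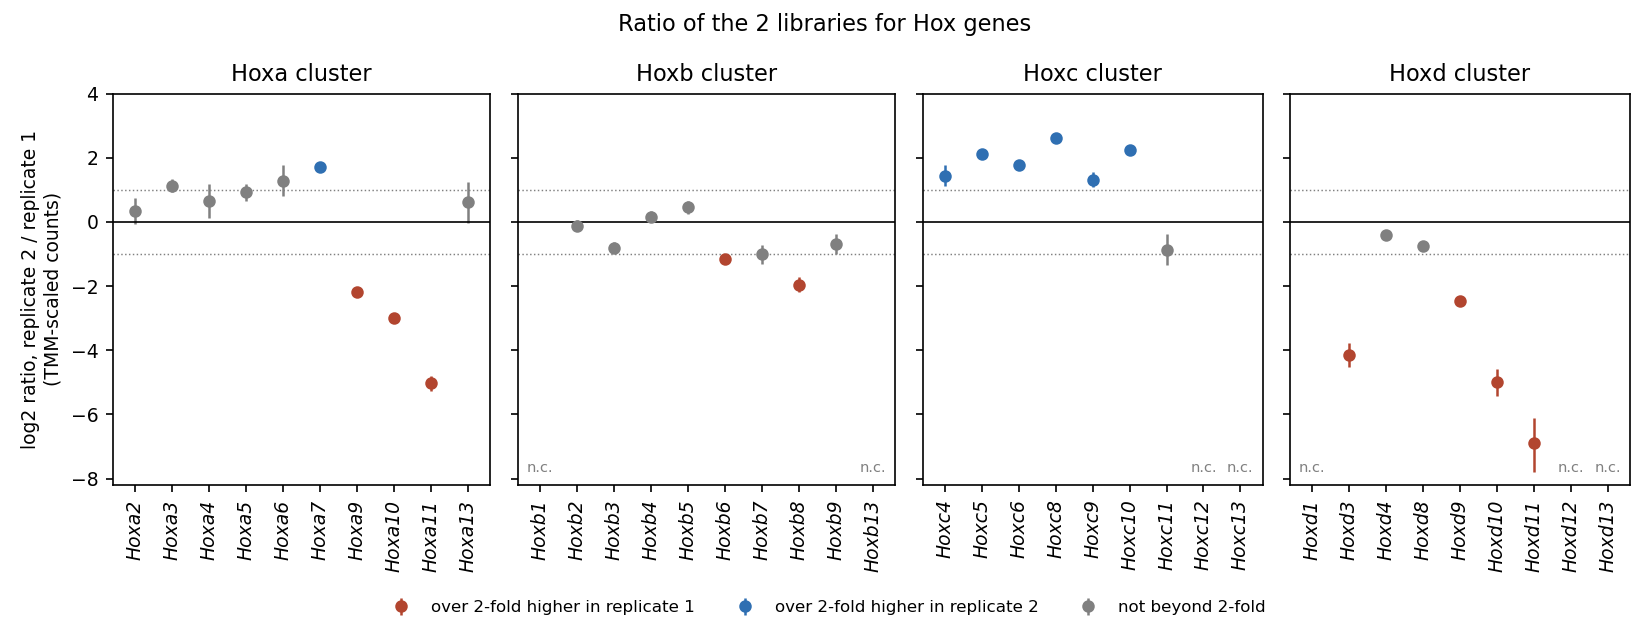
Log2 ratio of replicate 2 over replicate 1 of TMM-scaled counts for compared Hox genes, with exact 95% intervals of the count split (vertical lines); dotted lines mark 2-fold, red and blue points are genes wholly beyond it in replicate 1 or replicate 2, and n.c. marks genes with too few counts. Hoxa9 to Hoxa11 and Hoxd9 to Hoxd11 lie beyond the lower dotted line, down to -6.89 for Hoxd11, as do Hoxb6, Hoxb8 and Hoxd3, while Hoxc4 to Hoxc10 all lie above 1.

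Counts of overlapping genes carry a limit. Exon bases on the same strand are shared with another gene in 9 Hox genes, and reads in them were divided by the authors' model. In 10 Hox genes exons overlap a gene on the opposite strand; the libraries are labelled as stranded, but no source used here says whether the counting used strand. For Hoxa3, which shares exons with Gm28308, the summed ratio was 2.22 (1.94 to 2.54), close to that of Hoxa3 alone.

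The tables hold 87 transcripts of the 39 Hox genes, and 24 genes have at least 2. Of these, 23 reached a TPM of at least 1 in a library, and 20 had the same leading transcript in both. Hoxa10, Hoxa13 and Hoxb9 had another leading transcript in each library. On posterior mean TPM, 21 genes kept their leader: Hoxb9-201 then led in replicate 2 as well, by 50.05% to 49.95%. In Hoxa10 the transcript of the downstream start, Hoxa10-202, gave 40.8% of the gene's TPM in replicate 1 and 23.2% in replicate 2 (32.0 ± 12.5, SD, n = 2). Hoxa10-201, the transcript of the upstream start, gave 24.4% and 29.0%. Hoxa10-204, annotated as a processed transcript without a coding sequence, begins close to the upstream start and gave 34.25% and 25.49%, second in each library. The 2 transcripts of the upstream region thus together exceeded Hoxa10-202 in both libraries. Hoxa10-203, also annotated as noncoding, gave 0.58% and 22.3%. The windows upstream of both coding starts are printed above.

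The largest difference in transcript use was in Hoxb8. Hoxb8-202, a 664-base transcript, gave 84.3% of the gene's TPM in replicate 1 and 50.4% in replicate 2, and the longer Hoxb8-201 gave 13.7% and 49.6%; in replicate 2 these rested on 30.9 and 165 counts. Hoxb6-201 gave 52.1% and 78.7%, with Hoxb6-202, which begins further upstream, taking the rest. Hoxb9-201 gave 68.9% and 45.5%. Both transcripts of Hoxb6 and of Hoxb9 are annotated as protein coding, so these differences are of form and not of coding status.

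In Hoxa9 the short Hoxa9-202 gave 50.6% and 69.4%, and a retained-intron form, Hoxa9-205, 24.9% and 12%. Hoxa7 stood apart in that its leading form in both libraries, Hoxa7-205 with 55.8% and 63.9%, is annotated as a target of nonsense-mediated decay, so most of the Hoxa7 level given above is not from a transcript annotated as coding. The genes of the Hoxc cluster varied least: Hoxc5-201 and Hoxc9-201 each gave 100% in both libraries, Hoxc8-201 97.9% in each and Hoxc6-201 90.6% and 94.9%. Hoxa13 had only 42 and 48 counts, too few to place its 6 transcripts.

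**Figure D4:**
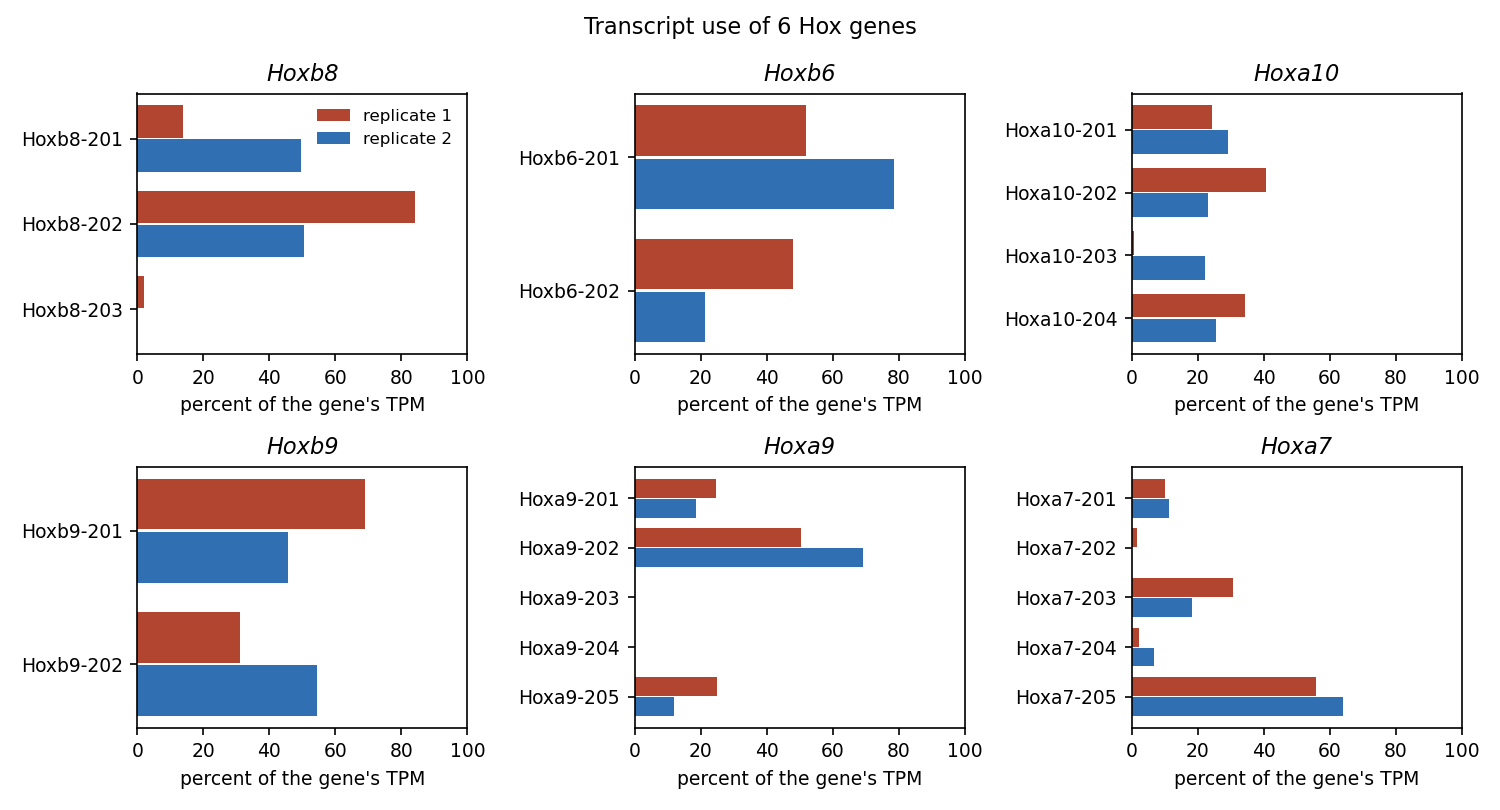
Percent of a gene's TPM taken by each of its transcripts in replicate 1 (red) and replicate 2 (blue) for 6 Hox genes. Hoxb8-202 stands at 84.3% and 50.4% and Hoxb6-201 at 52.1% and 78.7%, while Hoxa7-205 leads in both libraries.

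Promoter windows were found for 22 of the 39 Hox genes, 24 windows in all, and were set beside 32817 windows of 250 bases upstream of genes. Each motif was sought on both strands, and a base could count towards more than 1 motif. The Hox-Pbx composite TGATNNAT was in 16.7% of Hox windows and 7.69% of all windows, the homeodomain core TAATTA in 8.33% and 4.85%, and the Meis site TGACAG in 8.33% and 15.9%. TATAAA was in 16.7% and 12.4%, and CCAAT in 58.3% and 33.8%. The median number of CpG sites was 12.5 in Hox windows and 6 in all windows, and the median GC content 58.6% and 52.4%. Such a match is a description of the letters and not of a bound site. The windows of Hoxb6, Hoxc6 and Hoxc8 are not printed.

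Of 17 noncoding genes that lie within the clusters, 7 could be compared, and 2 were higher in replicate 1 and 1 in replicate 2, beside 14.3% and 9.96% of all genes compared. Hoxa11os, which is transcribed opposite to Hoxa11 and shares 800 exon bases with it, had 94.1 TPM (2885 counts) in replicate 1 and 5.30 TPM (182 counts) in replicate 2. It was 11.9-fold higher in replicate 1 (10.2 to 13.9), the same direction as Hoxa11. Hoxb5os had 40 and 6 counts and was 5.01-fold higher in replicate 1 (2.11 to 14.4), while the ratio of Hoxb5 was 1.38 towards replicate 2. Halr1, a noncoding gene of the Hoxa region, had 1 and 28 counts, a ratio of 37.3 (6.16 to 1525) towards replicate 2 that rests on a single count.

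Hoxb3os (1.74 and 1.89 TPM), Hoxd3os1 (2.98 and 4.71), Hotairm1 (1.12 and 1.35) and Hoxaas3 (0.41 and 0.84) were compared and not called. The ratio of Hoxd3os1, 2.11 (1.45 to 3.09), lay towards replicate 2, unlike those of Hoxd3 and Hoxd4. Hotair, which lies between Hoxc11 and Hoxc12, had 18 and 0 counts, too few to compare, and the 6 miRNA genes of the clusters had 0 counts in both libraries, which were selected for RNA over 200 nt. Among 14 genes that flank the clusters, 12 were compared; Snx10 (2.77-fold, 2.45 to 3.13) and Hibadh (2.57-fold, 2.47 to 2.67), near the Hoxa cluster, were higher in replicate 2, beside the same 9.96%, and none was higher in replicate 1. The homeobox genes Evx1 and Evx2, directly next to Hoxa13 and Hoxd13, had 0 counts. Atf7 (150 and 84.8 TPM), Calcoco1 (61.4 and 55.6) and Mtx2 (73.2 and 43.1), genes beside the Hoxc and Hoxd clusters, were within the bound.

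Hox proteins bind DNA with cofactors of the TALE homeobox class, the Pbx, Meis and Pknox proteins, to which the Tgif repressors are related. All 11 of these genes were compared, and 7 were called higher in replicate 1, beside 14.3% of all genes compared, and none in replicate 2, beside 9.96%. Their median log2 ratio was -1.49, beside 0.01 for all genes. Meis2 had 71.6 and 11.9 TPM (4.61-fold, 4.26 to 4.99) and Meis1 had 42.5 and 8.89 TPM (3.19-fold, 2.97 to 3.42). Pbx4, Pknox2 and Tgif1 were also higher in replicate 1, by 4.51-fold, 5.76-fold and 2.71-fold. Tgif2 differed most, with 37.1 and 2.22 TPM, a 12.6-fold difference (10.8 to 14.7).

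The 4 cofactor genes within the bound were Pbx2 (76.1 and 37.2 TPM), Pbx3 (6.31 and 2.82), Meis3 (55.9 and 17.2) and Pknox1 (27.6 and 9.55). Their scaled counts were 1.37-fold to 1.77-fold higher in replicate 1. The cofactors thus differed in the direction of Hoxa9 to Hoxa11 and Hoxd9 to Hoxd11 and not of the Hoxc genes.

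Upstream regulators of Hox clusters were called at a rate near that of all genes. Of 7 compared, 1 was higher in replicate 1, beside 14.3% of all genes compared. This was Gdf11, a signal that sets the onset of the trunk-to-tail Hox genes, with 12.6 and 2.33 TPM (3.47-fold, 3.11 to 3.88). The retinoic acid receptors Rara (35.8 and 14.4 TPM) and Rarg (55.6 and 37.9) were not called. Nor were the retinoid X receptor Rxra (68.2 and 90.2 TPM) and the insulator protein Ctcf (20.2 and 8.05). Cdx2 and Cdx4, the homeobox genes that switch on Hox clusters in the embryo, had 0 counts in both libraries.

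All 20 Polycomb genes, which keep Hox genes silent, and all 12 trithorax genes, which keep them active, were detected in both libraries. Of the 20 Polycomb genes 2 were higher in replicate 1, and of the 12 trithorax genes 1 was, shares below the 14.3% of all genes compared; none was higher in replicate 2. The 2 were Pcgf2 (59.7 and 16.7 TPM, 2.19-fold) and Cbx6 (125 and 26.7 TPM, 2.80-fold), and the trithorax gene was Psip1 (22.1 and 6.26 TPM, 2.84-fold). The other abundant members were within the bound: Rbbp7 (118 and 40.5 TPM), Phc2 (93.6 and 50.8), Ezh1 (36.3 and 40.8), Men1 (57.5 and 28.7), Kmt2b (49.5 and 26.0), Wdr5 (33.5 and 13.5) and Kmt2a (24.6 and 9.83). The ratios of Ezh1 (1.81, 1.74 to 1.88) and Cbx7 (1.68, 1.60 to 1.77) lay towards replicate 2. Median log2 ratios were -0.31 and -0.29. Scaled by total counts, which shifts the log2 ratios of all genes by -0.51, 6 Polycomb and 4 trithorax genes passed the bound. The share of all genes called under that scaling is not given here.

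Transcription factors other than Hox that mark position or depot were also divided. Of 21 compared, 9 were higher in replicate 1 and 4 in replicate 2, beside 14.3% and 9.96% of all genes compared. Twist2, a dermal factor, had 188 and 18.2 TPM (6.67-fold, 6.23 to 7.16), and Wt1, a factor of mesothelium and of uterine stroma, 140 and 10.98 TPM (8.69-fold, 8.04 to 9.41). Msx1 had 125 and 2.80 TPM (28.5-fold, 24.9 to 32.8), and Hand2, which acts in uterine stroma, had 29.2 and 0.09 TPM (208-fold, 105 to 482, from 2216 and 8 counts). Msx1, Hand2 and Emx2 are also in the list of uterus and oviduct markers, and Wt1 is also in that of mesothelium.

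Nr2f2 (120 and 32.1 TPM) and Tbx3 (79.3 and 7.49 TPM) were higher in replicate 1 as well. Those higher in replicate 2 were all at low level: Tbx5, the forelimb factor, at 0.15 and 0.99 TPM (10.3-fold, 6.54 to 17.2), Pitx1, a hindlimb factor, at 0.31 and 1.24 TPM (6.25-fold, 4.07 to 9.95), Irx3 at 0.28 and 2.42 TPM, and Shox2 at 0.03 and 0.39 TPM. The forelimb factor and the hindlimb factor were thus higher in the same library. Tbx4, another hindlimb factor, was higher in replicate 1, at 0.63 and 0.07 TPM.

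Markers of some other tissues differed in these directions, and those of others did not. Of 11 leukocyte markers, 2 were higher in replicate 1 and 9 were not wholly beyond the bound, with a median log2 ratio of 0.07. Of 10 fibroblast and adipocyte progenitor markers, 3 were higher in replicate 1, 2 in replicate 2 and 5 were within the bound. The shares of all genes compared were 14.3% and 9.96%. Of the reproductive tract list, the progesterone receptor gene Pgr had 88.6 and 0.23 TPM, and Wfdc2 had 380 and 0.14 TPM. The mesothelium markers summed to 288 and 62.7 TPM, with 4 of 6 higher in replicate 1, beside 14.3% of all genes compared. All 12 white adipocyte markers were higher in replicate 2, their median log2 ratio being 2.07, in the direction of the Hoxc genes, as were 5 of 8 endothelial markers (842 and 1886 TPM), beside 9.96% of all genes. Of 10 mammary epithelium markers, Csn2, Wap, Csn1s1 and Areg were at 0 in both libraries, and 3 could be compared. Krt5 (208 and 4 counts) and Elf5 (59 and 1) were higher in replicate 1, and Prlr (518 and 1121) was higher in replicate 2. The list summed to 7.64 and 5.30 TPM, of which Prlr gave 2.47 and 5.06. Kidney markers summed to 2.94 and 0.18 TPM, with Slc12a1 and Kap at 0 in both. Cdh16, the only kidney marker compared, had 2.56 and 0.04 TPM (268 and 5 counts) and was higher in replicate 1. The part of these tissues in the Hox differences was not tested.

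**Figure D5:**
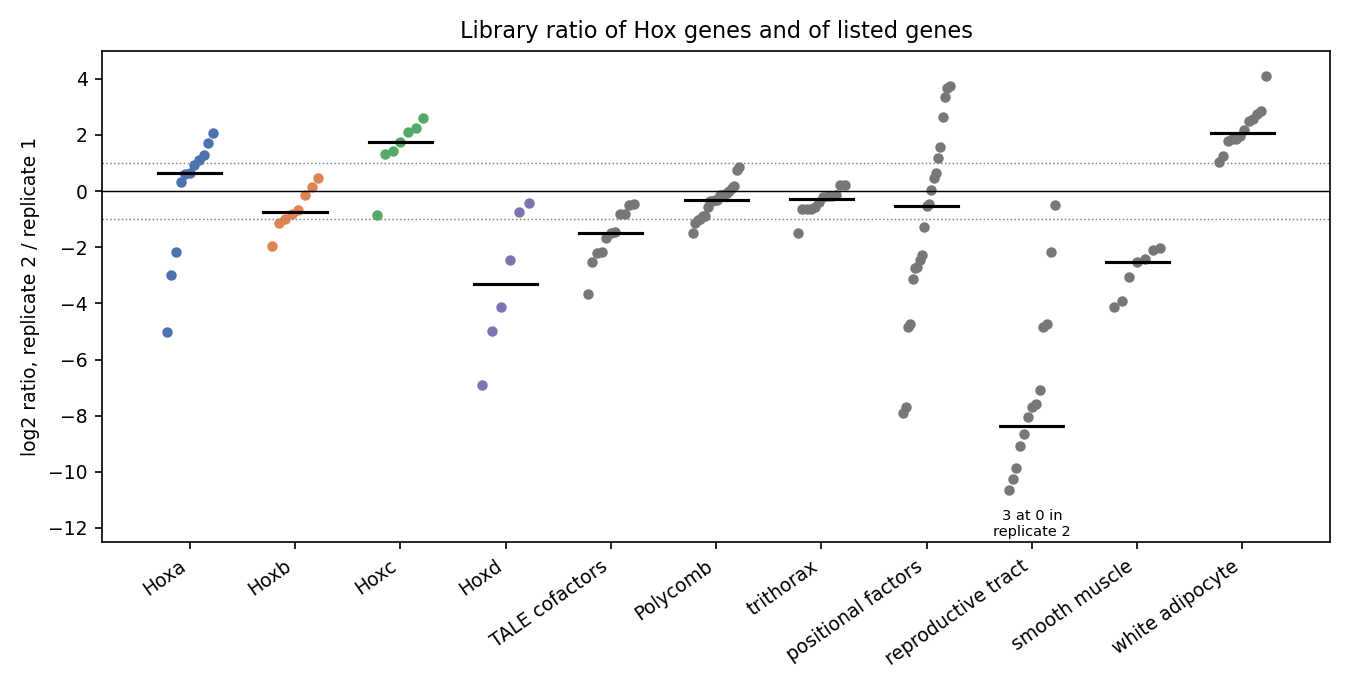
Log2 ratio of replicate 2 over replicate 1 (TMM-scaled counts) of the compared Hox genes by cluster (coloured) and of the genes of 7 lists (grey); each point is a gene, 3 reproductive tract markers at 0 in replicate 2 have no point, bars are medians, those 3 included as the lowest, and dotted lines mark 2-fold. TALE cofactors, smooth muscle and reproductive tract markers lie below 0 with the Hoxd genes, and white adipocyte markers lie above 0 with most Hoxc genes.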

How the data were processed

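PolyA RNA of the 2 fat pad libraries was analysed from the deposited gene and transcript tables. Reads were aligned to transcripts of mm10 with GENCODE release M4, per the notes deposited beside the tables; no source used here names the counting program. The deposited tables give expected counts, in which reads matching several features are divided by a model, and TPM and FPKM values relative to transcript length and library size. Each transcript's deposited share of its gene's TPM is a percent, and the deposited bounds around TPM, whose confidence level is not stated, are treated as a score. Symbols and coordinates came from GENCODE M21 on the same build; all 39 Hox genes matched. Tables deposited on mm9 were not used here.

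Expected counts of 43346 annotated genes were rounded and scaled with TMM factors (1.20 and 0.837) from edgeR 4.0.16 (R 4.3.3). Replicate 2 was divided by replicate 1, with exact Clopper-Pearson 95% intervals (scipy 1.17.1). A gene was called where the mean scaled count was at least 10 and the interval lay wholly beyond 2-fold. The calling step was tested on simulated data. Total estimated counts were 54752739 and 58687668. Relative to the 53601218 and 57500971 counts on annotated genes, 3 counts correspond to 0.0560 and 0.0522 CPM. No p-values were computed, since each side is 1 library. Promoters are RefSeq windows of GRCm38.p6.

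The Hox genes and the lists were chosen with earlier results of these data known. Every Hox gene is named or counted, although some genes that the rule names are counted only and not reported here by name; of each other list, tissue markers aside, the 4 members of highest mean TPM and those called are named, at most 8, with a few others chosen after their values were seen. Alternatives tried were other TPM thresholds, FPKM, posterior means, other scalings (DESeq2 1.42.0 size factors, total and spike-in counts), count filters, fold bounds, pseudocounts and leaving out each library.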

Additional observations from a re-analysis of the deposited data

How the results depend on the processing

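The number of Hox genes detected in both libraries, 26, was 12 with a TPM threshold of 5, and 27 to 31 over the single libraries when the other was left out. On TPM with a pseudocount of 0.1, 15 Hox genes passed the bound towards replicate 1 and 5 towards replicate 2, and 4 towards replicate 2 with a pseudocount of 1; the calls of Hoxa7 (ratios 1.91 and 1.84), Hoxc4 (1.70 and 1.46) and Hoxc9 (1.57 and 1.43) were lost under both. With a fold bound of 4, 2 were higher in replicate 2. Scaled by total counts, 1 flanking gene was higher in replicate 1 and 0 in replicate 2, and 3 upstream regulators, 6 Polycomb and 4 trithorax genes were higher in replicate 1. Scaled by spike-ins, these were 0 flanking genes higher in replicate 2, and 2, 6 and 3 genes of the other lists. Both scalings shift the ratios of all genes towards replicate 1, and the shares of all genes called under them are not given here. DESeq2 size factors and posterior mean counts gave the same call for all 32 Hox genes. The call of Hoxd3 was lost when counts were summed with Hoxd4 and Gm28230, an alternative chosen after seeing the data; the summed fold was 1.93. No result changed sign among calls. No paired analysis was possible because there is a single group. Genes with few counts in a library, such as Hoxd11 in replicate 2, have wide intervals.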
